A study of Mus musculus with 6 samples.

Results

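Collagens and laminins, from which interstitial matrix and basement membranes are built, were followed across 6 arrays of mouse colonic crypts. Members were taken by name alone: every probe set annotated to exactly 1 symbol made of Col, a number, a and a number, or of Lama, Lamb or Lamc and a number. This gave 74 probe sets for 46 genes, out of 22626 probe sets that were not array controls. They comprised 13 probe sets for 6 fibrillar genes of types 1, 3 and 5, 9 for 6 type 4 genes, 16 for 10 laminin genes and 36 for 24 other collagen genes.

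The arrays measured messenger RNA of crypts, the glands of the colonic epithelium, in 3 groups of 2. All mice were Lgr5-lacZ het males, in which a lacZ reporter sits in the Lgr5 locus of intestinal stem cells, so controls carry it too. Each control array pooled crypts from distal colons of 2 mice on drinking water, aged 6-8 weeks. Each DSS array pooled crypts of 2 mice of that age, at day 2 of 1% dextran sulfate sodium, a polysaccharide that injures the colonic epithelium. Tumor arrays each pooled crypts from 12 adenomas of 2 mice. Those mice received the carcinogen azoxymethane (AOM) at 12.5 mg per kg when 6-8 weeks old, and DSS from 5 days later. Successive cycles held 2, 1.5 and 1.0% DSS, each with 5 days of DSS and then 14 days of water, and the label for age is 90 days after AOM. Tumor and control mice therefore differed in age as well as in treatment, and these cannot be told apart.

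Fibrillar collagens assemble into the ropes of interstitial matrix and are made mainly by fibroblasts. Basement membranes are sheets under epithelia and around vessels, smooth muscle and nerves, in which a type 4 collagen network is linked to laminins, each of 1 alpha, 1 beta and 1 gamma chain. In the gut, epithelial cells make part of the laminins themselves, while type 4 collagen comes largely from the mesenchyme beneath them.

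Epithelial markers fitted the crypt label: Epcam, an epithelial adhesion molecule, measured 12936 and 12682 on the control, 14732 and 12534 on the DSS and 12781 and 11358 on the tumor arrays. Intensities are MAS5 signals in arbitrary units, and array medians lay between 94.8 and 131. Members were mostly dim: 17 of 74 lay above the array median on at least 2 arrays, against 53.7% of all probe sets, and 47 lay below it on every array. A dim probe set may carry background signal, and the table held no detection calls. Tumor replicate 1 and tumor replicate 2 stood apart from each other over the fibrillar genes, so values that rest on them are given for each array. Poly-A spike controls were brightest for the first replicates of control and DSS, averaging 631 and 948, while the remaining arrays had 244 to 307. Actin probe sets at the 3' end exceeded those at the 5' end by 0.95 and 1.04 (log2) in tumor and by 1.20 to 1.63 in control and DSS crypts, a measure of RNA integrity. The part of these 2 measures in the results was not tested.

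In tumor crypts the laminin chains Lama3 and Lama5 and the collagens Col9a1, Col9a3 and Col18a1 rose against control, and Col4a5 fell. Changes were tested on log2(intensity + 17.8), which understates changes of dim probe sets, with limma over all 22626 probe sets and a Benjamini-Hochberg adjusted p under 0.05. These 5 higher and 1 lower probe sets were 8.11% of the members, against 8.16% of all probe sets (5.1% higher, 3.06% lower), so the members' share was near the background. The median change over the members was 0.09, against 0.03 over all probe sets. Against DSS crypts, 7 members passed, 9.46% against 10.1% of all (6.27% higher, 3.82% lower). Lama3, Lama5, Col9a1 and Col9a3 were again higher, and Col4a5, Lamc3 and Col20a1 lower. No member passed between DSS and control crypts, where 0.0% of all probe sets passed either. Both tumor comparisons use the same tumor arrays and are not independent of each other.

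Deposited intensities were used without further scaling. With each array centred on its median, tumor changes would lie lower by 0.25 against control and by 0.23 against DSS, and the median over all probe sets would be -0.22 and -0.20. Of all probe sets called between tumor and control, 62.5% were higher, and with centring 38.7%. Against DSS these shares were 62.1% and 40.0%.

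None of the 13 fibrillar probe sets passed in any comparison. On 8 of them tumor replicate 1 was the lowest and tumor replicate 2 the highest of the 6 arrays, which held for 3.06% of all probe sets. Col3a1, the chain of type 3 collagen, measured 859.8 and 1580.3 on the control arrays, 1065 and 1909.8 on the DSS arrays and 307 and 2278 on the tumor arrays with probe set 1427883_a_at. The lowest and the highest of its 6 values were thus both from tumor crypts, on either side of control. Its change was -0.46 ± 0.83 (SE, adjusted p = 0.813). On 1427884_at, the other Col3a1 probe set, values were 107 and 154, 79.8 and 176, and 45.3 and 229 in the same order, and again the tumor arrays were the extremes.

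Col1a2, the second chain of type 1 collagen, had the same extremes. Probe set 1450857_a_at gave 385 and 506 on control, 456 and 788 on DSS and 89.8 and 961 on tumor arrays, with a change of -0.50 ± 0.90 (SE, adjusted p = 0.809). Tumor replicate 1 was the lowest array and tumor replicate 2 the highest. On 1423110_at the values were 83.8 and 144, 90.7 and 225, and 33.7 and 310.2, with the same extremes and a change of 0.02. Against control, the brighter probe set was called lower without tumor replicate 2, with a change of -2.09 (adjusted p = 0.0451), and no fibrillar probe set was called without tumor replicate 1.

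Col5a2, a chain of type 5 collagen, which sits inside type 1 fibrils, measured 86.4 and 179 on control, 134 and 238 on DSS and 89.7 and 541 on tumor arrays with probe set 1422437_at. Here tumor replicate 1 lay within the control range and tumor replicate 2 above every other array, and the change was 0.77 ± 0.74 (SE, adjusted p = 0.604). Col1a1, the main chain of type 1 collagen, was dim on both of its probe sets. It measured 42.7 and 59.8 on control, 40.0 and 83.0 on DSS and 26.1 and 249 on tumor arrays with probe set 1455494_at, and its change of 0.66 ± 0.78 (SE) did not pass. The other 7 fibrillar probe sets, for Col1a1, Col5a1, Col5a2 and Col5a3, lay below the median on every array.

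**Figure D1:**
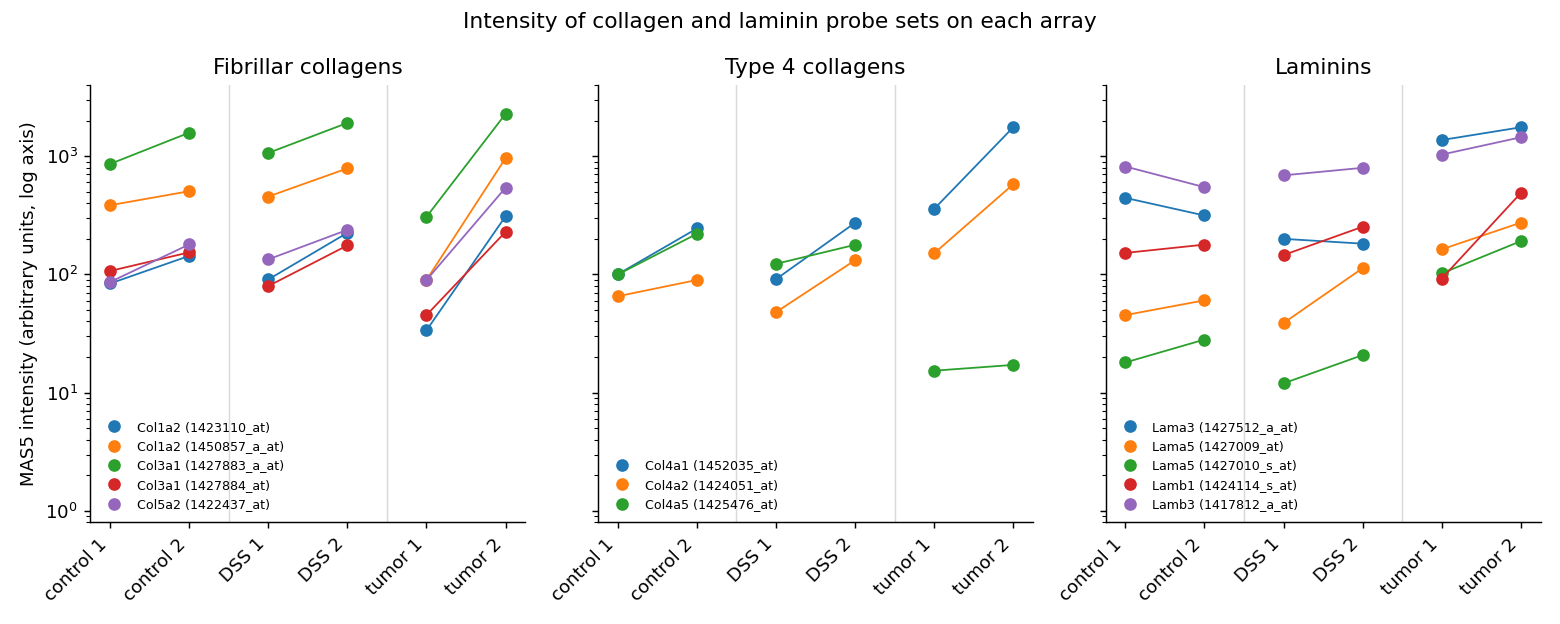
MAS5 intensity in arbitrary units on a log axis, for each of the 6 arrays; points are single arrays and lines join the 2 arrays of a group. Shown are the fibrillar and type 4 probe sets and the laminin probe sets above the array median on at least 2 arrays, with Lama5 1427010_s_at added because it was called. Col3a1 ran from 307 to 2278 between the tumor arrays, while Lama3 lay above control on both and Col4a5 below.

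Replicates differed in one direction over the fibrillar set. Tumor replicate 2 was brighter than tumor replicate 1 on 12 of the 13 probe sets, all 12 by more than 2-fold, against 14.2% of all probe sets. The median ratio was 5.55, with a range of 0.527 to 64.5. The exception was Col5a1 1416741_at, which measured 3.72 and 1.96 on the tumor arrays. Between the control arrays the median ratio was 1.44 and between the DSS arrays 1.85, and over all probe sets it was 1.04, 1.05 and 1.06 in control, DSS and tumor crypts. Basement membrane genes, meaning type 4 collagens and laminins, had a tumor ratio of 1.71, with 11 of 25 above 2-fold, and the other collagens one of 2.08. The gap was not particular to fibrillar genes. The median tumor ratio was 5.84 over the 5 probe sets of type 6 and related collagens and 4.58 over small leucine-rich proteoglycans. It was 3.65 over endothelial and 3.12 over leukocyte markers, where the control ratios were 2.30 and 1.50 and the DSS ratios 2.52 and 2.77. Fibroblast markers outside the members had a tumor ratio of 2.20, against 2.11 in control and 1.64 in DSS crypts. Smooth muscle and pericyte markers had 2.55, against 2.63 and 2.07. On arrays of pooled crypt preparations, fewer cells of a type in the preparation and less RNA per cell cannot be told apart.

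**Figure D2:**
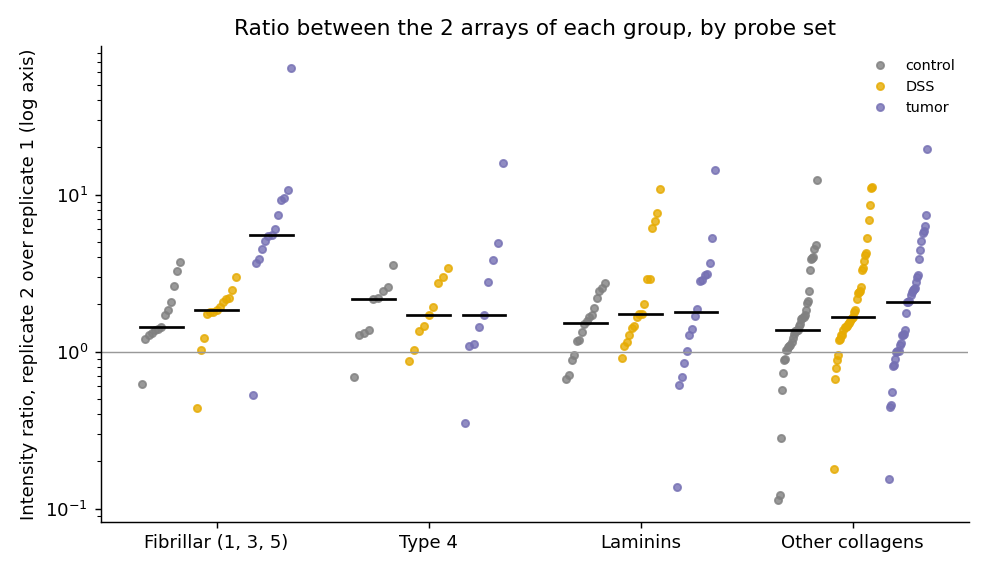
Ratio of replicate 2 to replicate 1 for each member probe set, on a log axis, by gene group and sample group; each point is 1 probe set and the bars are medians. Fibrillar probe sets between the tumor arrays have a median ratio of 5.55, against 1.71 for type 4 collagens and 1.78 for laminins.

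Fibrillar and basement membrane genes were then set against each other on each array, as the mean log2 difference of their probe sets from the control mean. On tumor replicate 1 the fibrillar mean was -0.87 and the basement membrane mean 0.13, a difference of -1.0. On tumor replicate 2 they were 1.01 and 0.74, a difference of 0.27. So the fibrillar genes lay below the basement membrane genes on the first of these arrays and above them on the second, and the tumor mean of -0.37 had an SD of 0.90 (n = 2). DSS arrays had differences of 0.15 and 0.29, with a mean of 0.22 ± 0.10 (SD, n = 2), and the control arrays -0.05 and 0.05. The order on tumor replicate 2 differed with the probe sets used. For the 5 fibrillar and 7 basement membrane probe sets above the array median on at least 2 arrays, differences were -1.76 and -0.28. That filter kept Col4a2 1424051_at and Lama5 1427009_at only through tumor arrays. They lay above the median on 0 control, 1 DSS and 2 tumor arrays. The filtered set was thus partly chosen by tumor values and cannot settle the order on tumor replicate 2. No test was made of these means, since the members were chosen with results of these arrays known.

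**Figure D3:**
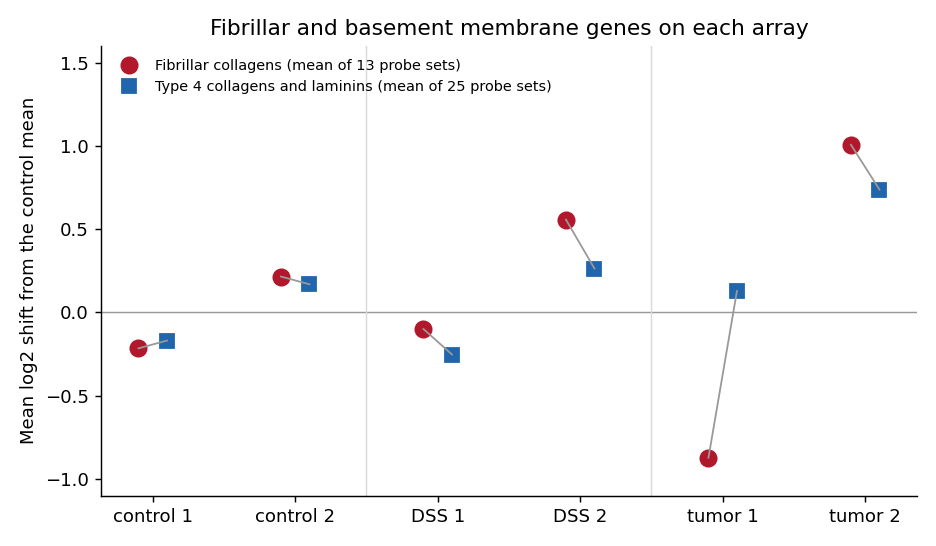
Mean log2 difference from the control mean on each array for the 13 fibrillar (circles) and 25 basement membrane probe sets (squares), joined by lines. The 2 sets part on tumor replicate 1, at -0.87 and 0.13, and lie at 1.01 and 0.74 on tumor replicate 2.

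Among type 4 collagens, 1 gene passed and it fell. Col4a5, whose chain forms part of a less widespread type 4 network, measured 99.9 and 220.4 on control, 123 and 178 on DSS and 15.3 and 17.2 on tumor arrays with probe set 1425476_at. Both tumor arrays lay below all 4 others, and the 2 tumor values were close to each other. Its change was -2.30 ± 0.39 (SE, adjusted p = 0.0166) against control and -2.29 ± 0.39 (adjusted p = 0.0147) against DSS. The other Col4a5 probe set, 1425475_at, measured 21.5 and 46.4, 45.7 and 78.3, and 8.99 and 15.4 in the same order, again lowest in tumor crypts, but missed the threshold (-0.75, adjusted p = 0.265). Against control, the call of 1425476_at was lost without control replicate 2 (adjusted p = 0.0937) and without either tumor array (0.0542 and 0.0789), while its change stayed between -2.81 and -1.79 with any 1 array left out.

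Col4a1 and Col4a2, whose chains form the type 4 network found in most basement membranes, had higher values in tumor crypts that did not pass. Col4a1 measured 100.3 and 245 on control, 91.1 and 273 on DSS and 357 and 1752 on tumor arrays with probe set 1452035_at. Both tumor arrays exceeded the other 4, but they differed from each other by more than the control arrays did. The change was 2.21 ± 0.79 (SE, adjusted p = 0.147), and the second Col4a1 probe set gave 1.71 ± 0.57 (adjusted p = 0.125). Col4a2 measured 65.4 and 89.8 on control, 47.9 and 132 on DSS and 151 and 577 on tumor arrays, with a change of 1.74 ± 0.63 (adjusted p = 0.151). In both genes, replicate 2 was the brighter array in every group. That order was common among the 74 members, holding on 61 in control, 66 in DSS and 60 in tumor crypts. Without tumor replicate 1, Col4a1 1452035_at and Col4a2 were called higher, at 3.33 (adjusted p = 0.0452) and 2.65 (0.0415).

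The promoters of this gene pair are shown because the genes lie head to head. Their values ran in parallel over the arrays, but this was not particular to the pair, since Nid1 1416808_at ran a like course. No link between promoters and values was tested. In RefSeq on GRCm38.p6, their windows of 250 bases before to 50 after the start, at chr8:11312777-11313076 for Col4a1 (minus strand) and chr8:11312555-11312854 for Col4a2 (plus strand), overlap. Each is written 5′ to 3′ on its own strand, and capitals mark the 78 bases that both windows hold.
Col4a1: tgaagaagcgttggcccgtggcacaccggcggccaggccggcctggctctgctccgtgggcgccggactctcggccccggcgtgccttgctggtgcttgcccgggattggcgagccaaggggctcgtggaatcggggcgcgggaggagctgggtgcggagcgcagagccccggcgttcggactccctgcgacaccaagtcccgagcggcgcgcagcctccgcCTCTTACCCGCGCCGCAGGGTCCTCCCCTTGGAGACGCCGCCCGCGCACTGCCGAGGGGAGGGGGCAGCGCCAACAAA
Col4a2: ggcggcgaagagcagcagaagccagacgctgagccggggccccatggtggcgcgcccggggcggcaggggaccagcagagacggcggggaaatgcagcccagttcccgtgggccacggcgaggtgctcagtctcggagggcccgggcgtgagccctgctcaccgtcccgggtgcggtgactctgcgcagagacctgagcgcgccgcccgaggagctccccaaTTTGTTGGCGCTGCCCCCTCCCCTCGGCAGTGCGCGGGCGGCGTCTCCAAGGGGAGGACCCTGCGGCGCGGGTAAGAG
The annotated starts lie 21 bases apart. G and C make up 74.0% and 73.7% of the windows, against a median of 52.7% over all promoters in the table. Counting both strands, the motif GGGCGG, which transcription factors of the Sp family bind, occurs 1 time in the Col4a1 and 3 times in the Col4a2 window, and 35.9% of 27018 promoters hold it. CCAAT occurs 1 time in each, and 37.9% of promoters hold it. Of the 46 member genes, 32 had such a window.

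For Col4a5, the type 4 gene that fell, the window at chrX:141475169-141475468 (plus strand) is shown for contrast, with capitals for its matches to GGGCGG and CCAAT.
Col4a5: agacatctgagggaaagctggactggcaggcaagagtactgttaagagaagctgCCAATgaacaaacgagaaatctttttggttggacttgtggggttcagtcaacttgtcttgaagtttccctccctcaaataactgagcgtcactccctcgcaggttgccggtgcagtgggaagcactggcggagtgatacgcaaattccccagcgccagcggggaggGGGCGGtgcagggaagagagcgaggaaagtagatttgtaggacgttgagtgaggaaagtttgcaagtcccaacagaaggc
It holds 1 match to each motif, and 52.7% of its bases are G or C. Its neighbour Col4a6 also lies head to head with it, but the starts are 1343 bases apart and the windows do not overlap. These matches describe the letters and do not show binding.

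The remaining type 4 genes were dim and did not pass. Col4a3, the partner of Col4a5 in the network of the kidney filter, measured 27.2 and 34.6 on control, 26.9 and 23.5 on DSS and 12.9 and 18.4 on tumor arrays. It was lowest on both tumor arrays, with a change of -0.55 ± 0.25 (SE, adjusted p = 0.244). Col4a4 stayed at or under 10.8 on every array, and the 2 Col4a6 probe sets had changes of -0.14 and -0.50. Over the 9 type 4 probe sets the median tumor change was -0.14, with 4 above 0.

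Lama3 rose in tumor crypts, with the smallest adjusted p of all members. Lama3 encodes the alpha chain of the laminin to which hemidesmosomes, the anchors of epithelial cells, attach. It measured 444 and 315 on control, 199.9 and 182 on DSS and 1368 and 1753 on tumor arrays. The 3 groups did not overlap: DSS lay lowest and tumor highest. Its change was 2.00 ± 0.22 (SE, adjusted p = 0.00373) against control and 2.91 ± 0.22 (adjusted p = 0.000989) against DSS. Lama3 was called in both comparisons under all 16 alternative settings, with changes of 1.75 to 2.24 and 2.47 to 3.09. In DSS crypts its change against control was -0.91 ± 0.22 on the log2 scale (unadjusted p = 0.00422), which did not pass over all probe sets (adjusted p = 1.00).

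Lama5, the alpha chain of the main laminin of mature epithelial basement membranes, also rose. Probe set 1427010_s_at measured 18.0 and 28.1 on control, 12.0 and 20.8 on DSS and 102 and 191 on tumor arrays. Both tumor arrays lay above the others, and the change was 1.96 ± 0.36 (SE, adjusted p = 0.0214) against control and 2.22 ± 0.36 (adjusted p = 0.0123) against DSS. The suffix _s_at marks probe sets that may match more than 1 transcript. Probe set 1427009_at measured 45.3 and 60.4, 38.8 and 113, and 163 and 274, again highest in tumor crypts, with a change of 1.71 ± 0.45 (adjusted p = 0.0660) that missed the threshold. The call of 1427010_s_at against control was lost without either control array (adjusted p = 0.110 and 0.0998) and without tumor replicate 2 (0.0985), with changes of 1.56 to 2.14.

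Lamb3, the beta chain that pairs with Lama3, measured 817 and 547 on control, 688 and 797 on DSS and 1031 and 1443 on tumor arrays. Both tumor values were the highest of the 6, and the change of 0.85 ± 0.24 (SE, adjusted p = 0.0843) did not pass. Lamb2, the beta chain of vessel and synapse laminins, measured 30.2 and 51.4, 29.7 and 42.0, and 94.8 and 95.2. Its tumor arrays were nearly equal and above the rest, with a change of 0.97 ± 0.31 (adjusted p = 0.107). Lamb1, the beta chain of most other laminins, on probe set 1424114_s_at measured 152 and 179, 146 and 253, and 92.0 and 487, with the lowest and the highest value both in tumor crypts and a change of 0.37 ± 0.65 (adjusted p = 0.807).

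Of the other laminin genes, Lama4, an alpha chain of vessel walls, measured 38.6 and 73.2 on control, 31.2 and 63.1 on DSS and 51.1 and 186 on tumor arrays with probe set 1424807_at. Tumor replicate 1 lay within the control range and tumor replicate 2 above it. Lamc1, the gamma chain of most laminins, followed the same order on 1423885_at, with 41.9 and 62.6, 39.6 and 57.6, and 55.1 and 157. Lama2, the alpha chain of muscle and nerve, measured 19.5 and 32.4, 30.4 and 50.6, and 1.72 and 24.7, and was lowest on tumor replicate 1. Lamc3 passed only against DSS on 1451758_at (-1.12 ± 0.27, SE, adjusted p = 0.0467), at 25.3 and 32.1 on DSS and 3.90 and 3.29 on tumor arrays, while its second probe set had a change of 0.46, so the 2 disagree. That call was lost without any 1 DSS or tumor array, with adjusted p of 0.121 to 0.185. The 4 laminin probe sets not described so far, for Lama4, Lamb1 and Lamc1, had tumor changes of 0.29, 0.10, 0.55 and -0.13 and did not pass. Lama1 stayed at or under 4.60 on every array. Over the 16 laminin probe sets the median tumor change against control was 0.46, with 12 above 0, and 0.21 after the shift of 0.25 that centring would bring.

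**Figure D4:**
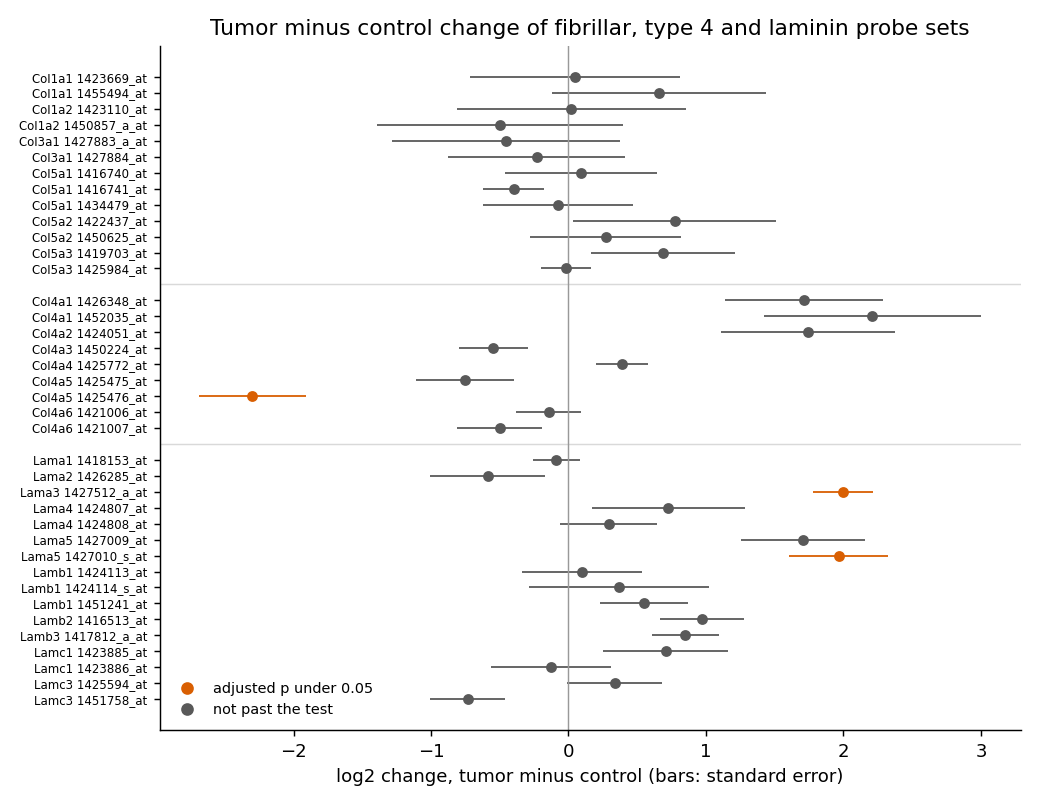
Log2 change between tumor and control crypts for each fibrillar (top), type 4 (middle) and laminin probe set (bottom); bars are standard errors, and orange points had an adjusted p under 0.05. Lama3 at 2.00 and Lama5 at 1.96 lie among the laminins, and Col4a5 at -2.30 is the lowest.

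By group, 3 of 25 basement membrane (12%) and 0 of 13 fibrillar probe sets passed between tumor and control, against 8.16% of all probe sets. These counts are small, and no difference between the groups was tested. Their median changes were 0.37 and 0.02, against 0.03 over all probe sets. Median centring puts these medians at 0.12, -0.23 and -0.22, so the sign of the fibrillar median depends on the scaling. The 2 tumor arrays lay wholly above or below both control arrays for 22 and 13 of the 74 members, where 51.3% of all probe sets did not overlap (28.4% higher, 23.0% lower). Among basement membrane genes these numbers were 11 and 4, and among fibrillar genes 0 and 1.

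Among the other collagens, Col9a3 and Col9a1, chains of type 9 collagen, which coats cartilage fibrils, rose in tumor crypts from very low levels. Col9a3 1460734_at measured 5.99 and 7.74 on control, 3.49 and 4.47 on DSS and 48.3 and 101 on tumor arrays. Both tumor arrays exceeded the others, although they too lay below the array median, and the change was 1.85 ± 0.32 (SE, adjusted p = 0.0169). A second Col9a3 probe set, 1460693_a_at, had tumor values of 30.6 and 175 against at most 5.40 elsewhere, with a change of 2.38 ± 0.58 (adjusted p = 0.0528). The third, 1420280_x_at, had a change of 0.02, so the 3 disagree. Col9a1 1428571_at measured 14.6 and 4.15, 13.6 and 12.8, and 61.7 and 79.2, with tumor above the rest and a change of 1.72 ± 0.29 (adjusted p = 0.0158). Its other probe set gave 0.34 and did not pass. Against control, the Col9a3 call was lost without either control array (adjusted p = 0.0901 and 0.105), and the Col9a1 call without control replicate 2 (0.111) or tumor replicate 2 (0.0835).

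Col18a1, a basement membrane collagen whose end fragment is endostatin, measured 31.0 and 17.8 on control, 63.1 and 80.8 on DSS and 91.8 and 284 on tumor arrays with 1426955_at. On that probe set, every DSS and tumor array lay above both control arrays. The tumor change of 2.13 ± 0.49 (SE, adjusted p = 0.0441) passed, but only 6 of 14 alternative settings kept that call. The change was 1.40 (adjusted p = 0.144) without tumor replicate 2 and 1.90 (0.218) without control replicate 2, and the call was also lost without control replicate 1 (0.117) or either DSS array (0.0809 for both). The DSS change of 1.1 ± 0.49 did not pass. The second Col18a1 probe set, 1418237_s_at, had a tumor change of 1.83 ± 0.60 (adjusted p = 0.116). There the DSS values of 20.7 and 29.9 lay within the control range of 3.61 to 44.5, with a DSS change of 0.23. Col20a1 1425235_s_at passed as lower in tumor than in DSS crypts, with a change of -1.01 ± 0.23 (SE, adjusted p = 0.0365), at 22.0 and 31.9 on DSS, 2.79 and 5.90 on tumor and 5.95 and 10.2 on control arrays. Its other 2 probe sets had changes of -0.16 and -0.07 there, and 8 of 14 settings lost the call, with adjusted p of 0.0585 to 0.154 when any 1 array was left out.

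Type 6 collagen, which forms beaded filaments beside the fibrils, was singled out after its values were seen. Col6a2 1452250_a_at measured 153 and 228 on control, 244 and 295 on DSS and 9.81 and 191 on tumor arrays. Tumor replicate 1 was far below every other array, and tumor replicate 2 lay within the control range. The change of -1.43 ± 0.82 (SE, adjusted p = 0.360) did not pass, and became -2.89 (adjusted p = 0.0173) without tumor replicate 2. Col6a1 had the same pattern, at 102 and 125, 133 and 182, and 19.5 and 114. On the second Col6a2 probe set and on Col6a3, tumor replicate 1 was again the lowest array, at 21.4 and 53.6. Of the other collagens, 27 of 36 probe sets lay below the median on every array, among them those for cartilage types 2, 10 and 11.

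The 22 remaining collagen probe sets, for 17 genes, had tumor changes of -0.52 to 0.93 against control, and 0 passed in any comparison. Col16a1, a collagen associated with fibrils, measured 109 and 178 on control, 120.4 and 183 on DSS and 247 and 249 on tumor arrays. Its tumor arrays were nearly equal and above the rest, with a change of 0.75 ± 0.30 (SE, adjusted p = 0.186). Col7a1, which forms the anchoring fibrils under some epithelia, measured 35.4 and 48.4, 50.1 and 44.3, and 24.2 and 58.3, so its tumor arrays were again the extremes. Col17a1, a transmembrane collagen of hemidesmosomes, stayed at or under 33.1 on every array.

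Between DSS and control crypts the 74 member changes ran from -0.91 for Lama3 to 1.1 for Col18a1 1426955_at. Their median was 0.11, against -0.00107 over all probe sets. At an unadjusted p under 0.05, 5 members passed, against 3.05% of all probe sets. The smallest adjusted p over all probe sets was 0.792. Fibrillar genes had a median change of 0.24, with 11 of 13 above 0, and the 2 DSS arrays differed. Between arrays of the same number, the fibrillar median was 0.09 for replicate 1 and 0.38 for replicate 2. Laminins had a DSS median of -0.07 and type 4 collagens of 0.02.

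Markers of other cell types moved between the arrays beside the members. Fibroblast markers outside the members (43 probe sets, 23 genes) summed to 19327 and 21160.0 on control, 21532 and 24351 on DSS, and 27268 and 46013 on tumor arrays. Of them, 7, for Vim, Mgp, Fn1 and Fbln1, rose in tumor crypts and 0 fell, 16.3% against 8.16% of all probe sets. The 4 probe sets of Vim and Mgp held 13268 and 21305 of the tumor sums, and the other 39 summed to 18691 and 19383 on control, 20574 and 22259 on DSS, and 14000 and 24708 on tumor arrays. Without those 4, which were set apart after their values were seen, tumor replicate 1 was the lowest array and tumor replicate 2 the highest. Taking out probe sets that were high on the tumor arrays lowers the tumor sums, so this order rests partly on that choice. With all 43, the tumor arrays had the 2 highest sums. The median shift of the whole list from the control mean was -0.20 and 0.85 (log2) on the tumor arrays. Its tumor and control arrays did not overlap for 11 of 43 probe sets that were higher and 7 that were lower. Over all probe sets the shares were 28.4% higher and 23.0% lower, so the list's counts were not above the background. The intermediate filament Vim measured 185 and 441, 268 and 461, and 2519.8 and 4570.2, with a tumor change of 3.48 ± 0.46 (SE, adjusted p = 0.00697). Both tumor arrays were thus high for Vim, while tumor replicate 1 was low for Col1a2 and Col3a1. The matrix protein Mgp measured 21.6 and 119, 51.2 and 193, and 5199 and 6073, also high on both. Mmp2, a gelatinase of fibroblasts picked after its values were seen, measured 78.5 and 94.8, 82.5 and 120.2, and 27.8 and 157 on the dimmer of its probe sets, with the tumor arrays at the extremes. Its brighter probe set is not described here, and this 1 gene does not stand for the list.

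Endothelial markers (18 probe sets, 13 genes) summed to 382 and 846 on control, 449 and 973 on DSS, and 810.4 and 2494 on tumor arrays, with 0 called and a median change of 0.71. Leukocyte markers (19 probe sets, 13 genes) summed to 752 and 1606, 624 and 1808, and 3608 and 8939, with 1 called, the lysozyme gene Lyz2. Smooth muscle and pericyte markers (26 probe sets, 14 genes) summed to 2754 and 6487, 3264 and 6410.4, and 2448 and 5779, with 0 called. In these 3 lists replicate 2 was the brighter array in every group. Enteric glia and neuron markers (13 probe sets, 7 genes) summed to 186 and 320.0, 180.0 and 382, and 119 and 184, with 0 called. Pan-epithelial markers (23 probe sets, 15 genes) summed to 125139 to 157353 over the 6 arrays, with 1 called higher against control, and 1 higher and 1 lower against DSS. The tight junction gene Cldn4 measured 188 and 166, 141 and 171, and 2011 and 2668 (change 3.58 ± 0.20, SE, adjusted p = 0.000496), far higher on both tumor arrays. The intestinal transcription factor Cdx1 was lower against DSS (-1.03 ± 0.19, adjusted p = 0.0202) and missed the threshold against control (-0.80, adjusted p = 0.0518). Among defining markers, Ptprc of leukocytes measured 165 and 207, 82.7 and 225, and 73.4 and 415, and Pecam1 of endothelium 19.1 and 15.0, 1.72 and 38.2, and 4.09 and 86.7. Acta2 of smooth muscle measured 448 and 1689, 689 and 1761, and 293 and 794 on 1416454_s_at, the brighter of its probe sets, and did not pass. Every probe set on these arrays lay above 0, with lowest values of 0.06 to 0.09 by array, so a value above 0 does not show a cell type. The part of these cell types in the member changes was not tested.

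**Figure D5:**
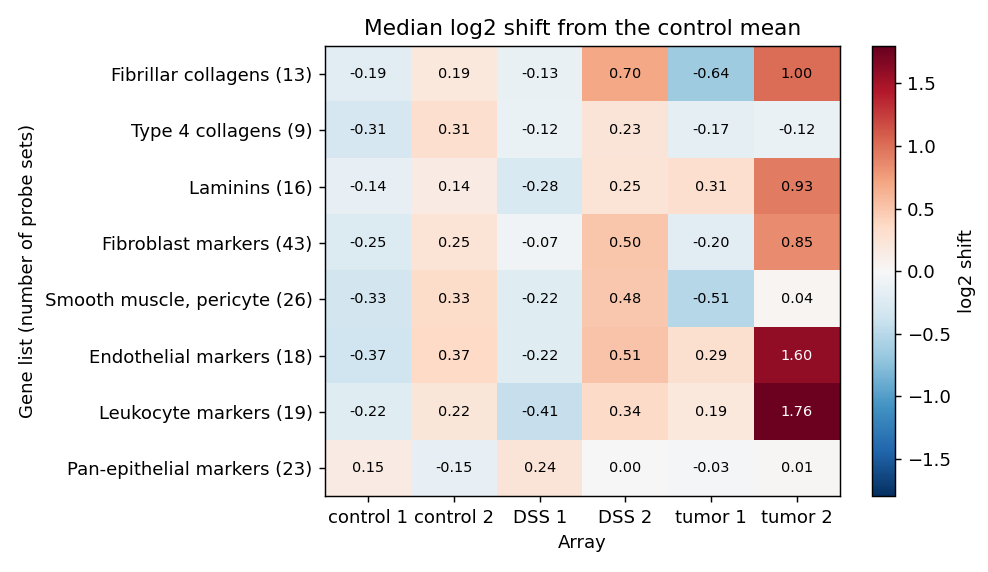
Median log2 difference from the control mean on each array for the member groups and the cell type marker lists, as a colour scale with the value in each cell. Fibrillar genes stand at -0.64 and 1.00 on the tumor arrays, endothelial markers at 0.29 and 1.6, and pan-epithelial markers at -0.03 and 0.01.

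Of 34 probe sets for 21 genes of collagen processing and cross-linking, 2 rose and 0 fell in tumor crypts. That was 5.88%, against 8.16% of all probe sets (5.1% higher). They were Colgalt1, which adds galactose to collagen, at 436 and 397, 396 and 457, and 666 and 944 (change 0.90 ± 0.21, adjusted p = 0.0434), and the procollagen processing enhancer Pcolce2. The collagen chaperone Serpinh1 measured 62.4 and 133, 61.4 and 123, and 61.0 and 318 on 1450843_a_at and did not pass (0.57 ± 0.69, adjusted p = 0.697). Tumor replicate 1 lay near control replicate 1 there, and tumor replicate 2 above all.

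Other basement membrane components had 5 probe sets higher and 1 lower of 24 in tumor crypts, 25% against 8.16% of all probe sets. Npnt, a ligand of integrins, measured 9.40 and 19.4, 9.16 and 14.8, and 153 and 197, with a change of 2.59 ± 0.30 (SE, adjusted p = 0.00459). Smoc2, a calcium-binding matrix protein, measured 476 and 542, 426 and 309, and 1832 and 2517, with a change of 2.04 ± 0.22 (adjusted p = 0.00370). Both were high on both tumor arrays. Nid1, the link between laminins and type 4 collagen, measured 36.8 and 114, 45.3 and 134, and 79.2 and 471 on 1416808_at. It did not pass (1.36 ± 0.82, adjusted p = 0.386), and replicate 2 was the brighter array in every group. On 1448469_at Nid1 measured 22.3 and 11.3, 20.3 and 19.9, and 7.28 and 46.3. There replicate 2 was brighter only in tumor crypts, and the change was 0.23.

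Receptors for collagens and laminins had 2 of 43 probe sets higher and 0 lower, 4.65% against 8.16% of all probe sets. Of all probe sets 5.1% were called higher, so the share called higher was near the background. Tumor and control arrays did not overlap for 23 that were higher and 4 that were lower, against 28.4% and 23.0% of all. The median change was 0.31, against 0.03 over all probe sets, before the shift of 0.25 that centring would bring. The collagen receptor kinase Ddr1 measured 221 and 127, 219.6 and 196, and 423 and 447 (change 1.28 ± 0.27, adjusted p = 0.0330), and the integrin chain Itgb1 had a change of 0.69 ± 0.16 (adjusted p = 0.0496). Itga6, the laminin-binding integrin chain of hemidesmosomes, measured 3351 and 2282, 2756 and 2663, and 4578 and 5103. Both its tumor values were the highest, and its change of 0.80 ± 0.20 (adjusted p = 0.0554) missed the threshold against control and passed against DSS (0.83 ± 0.20, adjusted p = 0.0440). Its partner Itgb4 did not pass (0.92 ± 0.44, adjusted p = 0.269).

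Proteases that cut collagens and laminins, with their inhibitors, had 9 of 35 probe sets higher and 0 lower in tumor crypts. That was 25.7%, against 8.16% of all probe sets. Mmp7, a matrix protease of epithelial cells, measured 36.3 and 30.8, 34.6 and 25.8, and 6283 and 5709, with a change of 6.87 ± 0.20 (SE, adjusted p = 6.31e-05). Both tumor arrays lay above all others. Mmp14, a membrane-bound collagenase, measured 449 and 464, 572 and 646, and 1654 and 2349 (change 2.07 ± 0.20, adjusted p = 0.00216), and the inhibitor Timp2 had a change of 2.22 ± 0.35 (adjusted p = 0.0125). None of these lists held a called probe set between DSS and control crypts.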

How the data were processed

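RNA of 6 crypt samples (2 control, 2 DSS, 2 tumor) was hybridised to Affymetrix arrays as biotin-labelled cRNA, per the labels' protocols. The authors deposited 1 linear intensity for each probe set and array. MAS5 is named, without a version, in the submitters' processing notes. On each array the mean without the highest and lowest 2% of values was near 500.2, the form that MAS5 scaling takes. With 2 arrays in each group, their number limits the precision.

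Of 22690 probe sets, 64 controls were set aside. Gene symbols came from the platform annotation (20380 probe sets with 1 symbol, 691 with several, 1555 with none), and all 74 member probe sets matched a gene identifier of the RefSeq table. Values were taken as log2(intensity + 17.8), the 25th percentile of all values. All 22626 probe sets entered a limma fit (version 3.58.1, R 4.3.3), 3 groups in 1 fit with 3 residual degrees of freedom, an intensity trend and Benjamini-Hochberg adjustment over all of them. Dim probe sets were kept, because a filter would admit some members only through the group where they were high. The script was tested on simulated data, with log2 changes of 1 or 2 set in 200 probe sets brighter than the median. On average over 20 simulations, 13.65% of changes of 1 and 65.8% of changes of 2 were called. A change that did not pass may thus have been missed. Tests were 2-sided, and the groups' pools are called independent replicates in the labels. Promoter windows came from RefSeq on GRCm38.p6. Python 3.11.15 and matplotlib 3.10.9 drew the figures.

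Members and lists were chosen with earlier results of these data known. Every fibrillar, type 4 and laminin gene is accounted for, with its 6 values where it lay above the array median on both arrays of a group. Other collagens are named where called. List genes were picked by smallest p (up to 3 for tumor and 2 for DSS against control), plus 9 fixed genes. Not all genes picked by p are described. Dimmer genes given with values, type 6 collagens among them, were chosen after their values were seen. Alternatives were 2 other pseudocounts, a filter, other probe set handling, 2 normalizations, no intensity trend, 2-group fits, a replicate block and each array left out.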

Additional observations from a re-analysis of the deposited data

How the results depend on the processing

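Called members numbered 6 between tumor and control and 7 between tumor and DSS crypts. With the replicate number as a block they numbered 12 in both the 2-group and the 3-group fit against control, and 16 and 15 against DSS. Both Col4a1 probe sets and Col4a2 gained the call with the block, against control (adjusted p of 0.00186 to 0.0280 over both fits) and against DSS (0.00256 to 0.0344). Replicate numbers were not taken as pairs, since there are only 2 and the labels name nothing shared. Deviations of same-numbered arrays did correlate over all probe sets (r = 0.31 for control and DSS, 0.15 for control and tumor, 0.30 for DSS and tumor). Over the 12146 probe sets above the array median on at least 2 arrays, r was 0.48, 0.13 and 0.47 in the same order. With a filter on low values, alone or with 1 probe set per gene, 3 members were called against DSS, of the fewer members tested. Leaving out 1 array gave 1 to 9 called members against control, with 1 lacking control replicate 2, 3 lacking control replicate 1 and 9 lacking tumor replicate 1, and 1 to 9 against DSS, with 1 lacking either DSS array. No member was called between DSS and control in any setting. Over all probe sets, calls against control numbered 1846, and 1132 in the 2-group fit. Against DSS they numbered 2284, and 3883 with the block in the 2-group fit. The fibrillar minus basement membrane difference of the DSS arrays was 0.22. A pseudocount of 1 gave 0.33, and the filter with 1 probe set per gene 0.42. It ran from 0.15 to 0.29 with 1 array left out. For tumor arrays it ran from -1.0 to 0.27, above 0 only without tumor replicate 1. Lama3 kept its calls in all 16 settings in both comparisons. Of the other calls, Col18a1 against control and Col20a1 against DSS were kept in 6 of 14, and no called change turned sign.

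Limits are 2 arrays per group, pools of 2 mice, dim members without detection calls, and crypt preparations that hold RNA of other cell types.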

Other observations

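Hemidesmosome genes, which tie epithelial cells to the laminin that contains Lama3, moved in both directions in tumor crypts: of 19 probe sets for 7 genes, 2 were higher and 2 lower with adjusted p under 0.05 (21.1%, against 8.16% of all probe sets), with a median log2 change of 0.26. Both higher probe sets were for 1 gene, Krt14, while the probe sets for Itga6 and Itgb4 did not pass against control. The basal keratin Krt14 measured 28.6 and 19.1 on control, 65.5 and 69.7 on DSS and 343 and 297 on tumor arrays with 1423935_x_at. Its change was 3.03 ± 0.26 (SE, adjusted p = 0.00171), and 2.39 ± 0.28 (adjusted p = 0.00464) on 1460347_at. Every DSS array lay above both control arrays and every tumor array above both DSS arrays. The linker Dst measured 590.4 and 764, 781 and 974, and 198 and 241 on 1423626_at, with a change of -1.55 ± 0.21 (adjusted p = 0.00726). Both tumor arrays were thus below all others.

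Small leucine-rich proteoglycans, which bind collagen fibrils, had 2 of 19 probe sets lower and 0 higher in tumor crypts, both of them for Ogn. Their share of 10.5% was near the 8.16% of all probe sets. On 1419663_at Ogn measured 519 and 871 on control, 1106 and 1084 on DSS and 13.1 and 59.4 on tumor arrays. Both tumor arrays lay far below the other 4, and the change was -3.82 ± 0.44 (SE, adjusted p = 0.00429). Tumor replicate 2 was brighter than tumor replicate 1 on 17 of the 19 probe sets, on 16 of them by more than 2-fold, with a median ratio of 4.58, close to the 5.55 of the fibrillar collagens. Ogn was brighter on tumor replicate 2 as well, but there too it lay below the other 4 arrays. The 19 probe sets of the list, for 9 genes, had a median change of -0.23.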
